A study of Mus musculus with 7 samples.

Results

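The genes described here are 48 mouse genes known as targets of the transcription factor Nrf2, which are the genes of detoxification, glutathione synthesis, NADPH supply, heme breakdown and iron storage. The list and its functional groups were chosen with earlier results of these data known. The 48 genes were taken by symbol, with no filter on their values, from the 49315 mouse genes counted in each library. All 48 symbols matched 1 gene each. Their RNA was compared in pancreatic islets of mice aged 7 days between 3 control pools (genotype Nrf2lox/lox, numbered 1, 2 and 4) and 4 pools with a β-cell specific deletion of Nrf2 (βNrf2KO, numbered 1 to 4). Each pool held RNA of 5 animals, and no agent was given in the labels. The promoter that drives the Cre recombinase is not given in the labels, and Cre animals without floxed alleles were not analysed here, so the presence of Cre and the deletion cannot be told apart. The study asks by which mechanisms Nrf2 stimulates β-cell proliferation in the neonate. Rows of its target genes show how far the RNA of that program differed between the genotypes in whole islets.

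Nrf2 is held in the cytoplasm by Keap1, which presents it for degradation. Oxidants and electrophiles modify Keap1, and Nrf2 then enters the nucleus, pairs with a small Maf protein and binds antioxidant response elements near its targets. The targets make and recycle glutathione and thioredoxin, supply the NADPH that both need, reduce quinones and carbonyls, conjugate and export electrophiles, break down heme and store iron. β-cells are known for low levels of several enzymes that remove peroxide.

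The core letters of the antioxidant response element, TGACNNNGC, were searched on both strands of the RefSeq promoter windows (GRCm38.p6), which run from 250 bases before to 50 bases after a RefSeq start, with 1 window for each start of a gene. Of the 48 members 38 had a window, and 14 of these 38 (36.8%) held a match, against 14.0% of all 27025 genes with a window. The windows below are shown because they hold the match in members that the results return to. Each is printed 5′ to 3′ along the strand of the match, with the 9 matching letters in capitals.
Gclm, chr3:122245413-122245441, minus strand: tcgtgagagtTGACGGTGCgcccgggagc
Txnrd1, chr10:82859104-82859132, minus strand: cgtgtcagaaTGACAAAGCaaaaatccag
Prdx1, chr4:116685456-116685484, minus strand: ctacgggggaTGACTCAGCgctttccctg
G6pdx, chrX:74428919-74428947, plus strand: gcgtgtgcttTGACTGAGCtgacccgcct
Abcc4, chr14:118706226-118706254, plus strand: cggcccgcccTGACCCCGCctctcggggc
Ugdh, chr5:65435956-65435984, minus strand: gcggagcccgTGACTTAGCtggagctgat
Htatip2, chr7:49759453-49759481, plus strand: gtctgagctgTGACTCAGCacttccctag
The matches start 134 bases upstream of the RefSeq start of their window for Gclm, 92 for Txnrd1, 133 for Prdx1, 57 for G6pdx, 25 for Abcc4, 132 for Ugdh and 49 for Htatip2. The counted genes can begin further out than these starts. The printed stretch of Htatip2, which belongs to the second of its 2 RefSeq starts, lies 338 bases inside the gene as counted, and that of G6pdx 247 bases inside. Prdx1 and Htatip2 carry the same 9 letters, TGACTCAGC, and Me1 holds them too, 6 bases before a RefSeq start. Those letters also contain TGANTCA, the form bound by AP-1 proteins, which was present somewhere in the windows of 8 of the 38 members (21.1%) and of 9.0% of all genes. Among groups, a match was held by 2 of 2 export genes, 3 of 4 thioredoxin and peroxiredoxin genes, 3 of 5 NADPH genes 2 of 3 glutathione genes, 3 of 11 conjugating enzymes and 1 of 3 other targets with a window. None of the 7 genes of reduction, oxidation and hydrolysis with a window, Nqo1 among them, and none of the 3 heme and iron genes held one, nor did Txn1. A match describes letters in this window and is not a measured binding site.

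Libraries held 18187382 to 25373105 counts, with the 3 control libraries the largest. The Cre sequence had 0 counts in the 3 control pools and 23 to 73 in the 4 βNrf2KO pools. Genes of the mitochondrial genome took 14.6% to 51.8% of the counts in control and 10.02% to 27.7% in βNrf2KO pools. The label islet held for the hormones, with Ins2 at 6311 to 24266 RPKM over the 7 pools. RPKM is a count divided by exon length and by library size, here scaled by TMM (trimmed mean of M-values), and only RPKM is used to compare 1 gene with another. The summed level of 10 β-cell markers was 13834, 8175 and 24561 RPKM in control pools 1, 2 and 4 and 21289 to 30543 RPKM in βNrf2KO pools. Most of that sum is Ins2 and Iapp (6311 and 1518 RPKM in control pool 2). Of the 10 markers 9 lay above 0 in log2 fold change, and Mafa lay below (-0.78 ± 0.22, SE; edgeR adjusted p = 0.571). Pools of the groups did not overlap for Mafa, lower, and Trpm5, higher (3.80% lower and 3.19% higher of all tested genes). For several other cell types all tested markers had log2 fold changes below 0. These were 9 of 9 fibroblast and mesothelial, 7 of 7 pericyte and smooth muscle, and 8 of 8 macrophage genes. They were also 8 of 8 tested acinar genes, 6 of 6 Schwann cell and neuron genes and the 1 tested adipocyte gene. Their summed levels were 72.5 to 222 against 61.2 to 128 RPKM for fibroblast and mesothelial markers and 167 to 450.2 against 145 to 222 RPKM for pericyte and smooth muscle markers, control first. Macrophage markers summed to 26.1 to 56.5 RPKM in control and 25.6 to 34.9 RPKM in βNrf2KO pools. Schwann cell and neuron markers summed to 24.0 to 39.5 against 21.1 to 27.1 RPKM. Adipocyte markers, which were low, summed to 0.978 to 2.13 against 0.581 to 0.923 RPKM, without overlap. Acinar markers summed to 45.7 to 329 against 41.2 to 180.3 RPKM, with Ptf1a and Pnlip at 0 to 4 counts. Their part in the differences between the groups was not tested. In whole islets, fewer cells of a type and less RNA per cell cannot be told apart.

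**Figure D1:**
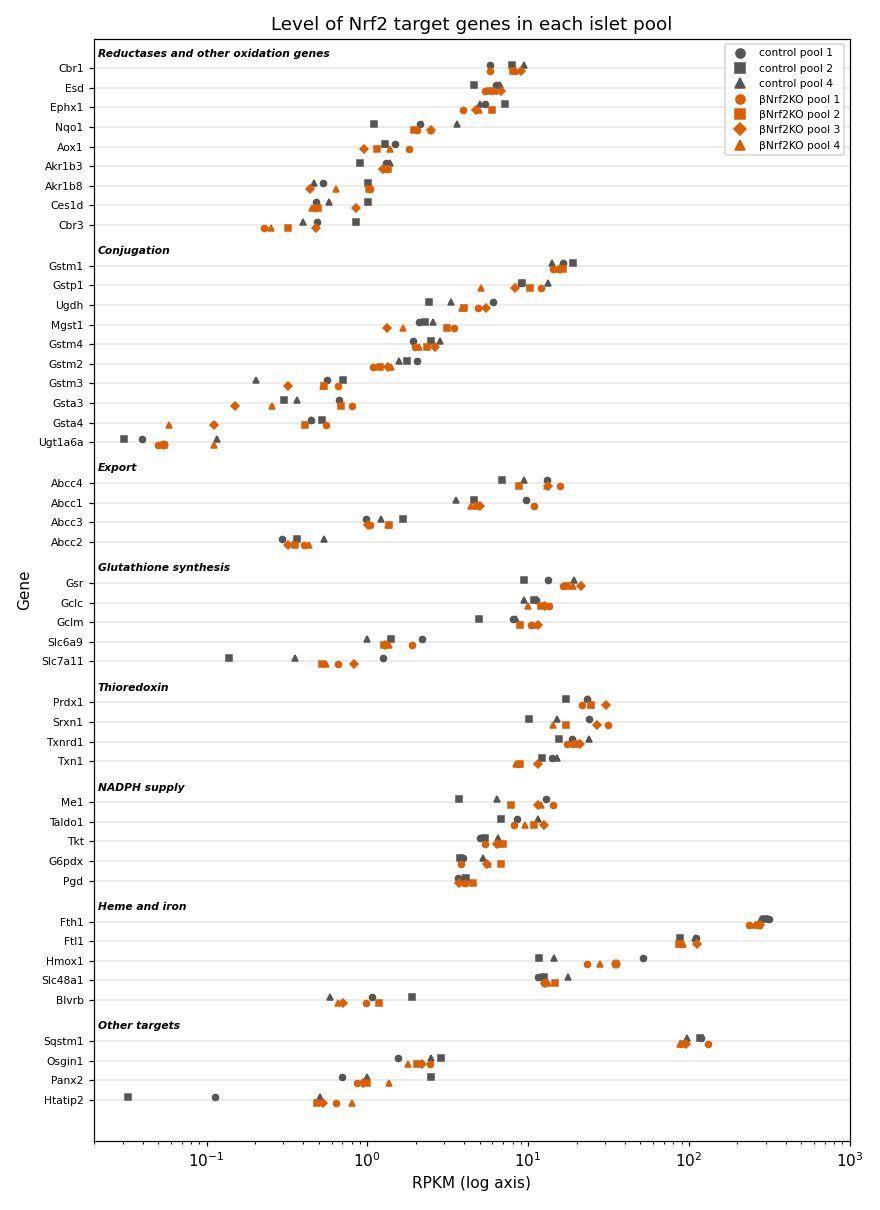
Level of the Nrf2 target genes in RPKM (log axis) in each of the 3 control and 4 βNrf2KO pools, sorted by level within functional groups. Each symbol is 1 pool, and Gsta1 and Gsta2, with 0 or 1 counts per pool, are not drawn; Fth1, Sqstm1 and Ftl1 lie far above the rest, and in most rows the symbols of the groups overlap.

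The level of these genes in islets spanned a wide range, as the plot of levels by pool shows. Averaged over the 7 pools, 13 members lay at 10 RPKM or more, 23 at 1 to 10 RPKM and 12 under 1 RPKM. The ferritin chains Fth1 (298 ± 17.0 RPKM, SD, n = 3 control pools) and Ftl1 (103 ± 12.7 RPKM), which store iron, and Sqstm1 (111 ± 11.7 RPKM), the selective autophagy receptor that also binds Keap1, made up 66.1% of the summed level of all members in control islets. The next were Hmox1, which acts on heme, and Prdx1, Srxn1 and Txnrd1 of the thioredoxin and peroxiredoxin genes. At the other end, the glutathione transferase Gsta1 had 0 counts in every pool, Gsta2 had 0 or 1 and the glucuronosyl transferase Ugt1a6a had 2 to 15, so these 3 did not pass the filter on low counts and 45 members were tested.

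No member passed the test between βNrf2KO and control islets. By edgeR's quasi-likelihood test with Benjamini-Hochberg adjustment over 19893 genes, 0 of 45 members had an adjusted p under 0.05, where the share of all genes called was 0%, and the smallest adjusted p among them was 0.571. DESeq2 and limma-voom also called 0 members, as did edgeR with the pool number as a block, which called 0.0704% of all genes. At an unadjusted p under 0.05 there were 2, Gclm higher and Txn1 lower (2 of 45, against 8.46% of all genes, 3.23% higher and 5.23% lower). With the pool number as a block there were 5, namely Gclm, Me1, Abcc4 and Htatip2 higher and Txn1 lower, against 12.1% of all genes (6.02% higher and 6.12% lower). Without the block, the count of 2 was 8 when control pool 1 was left out, against 14.1% of all genes. Those were Gclm, Slc7a11, Srxn1, Me1, Hmox1, Abcc4 and Ugdh higher and Txn1 lower. The share of all genes by direction was not computed for that fit. The count was 1 without control pool 2 (2.31% of all genes), βNrf2KO pool 3 (3.97%) or βNrf2KO pool 4 (4.22%).

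The log2 fold changes, βNrf2KO minus control, were centred near 0. Of the 45 members 23 lay above 0 and 22 below, where 49.4% of all tested genes lay above 0 and 50.6% below. Their median was 0.01, against -0.01 over all tested genes. For 36 of the 45 the 95% interval of the log2 fold change stayed above -1, as it did for 71.9% of all tested genes, and for 31 it lay wholly between -1 and 1 (55.4% of all genes). In 4 members the pools of the groups did not overlap, Gclm being higher in βNrf2KO and Txn1, Gstm2 and Fth1 lower (4 of 45, against 6.99% of all genes, 3.19% higher and 3.80% lower).

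**Figure D2:**
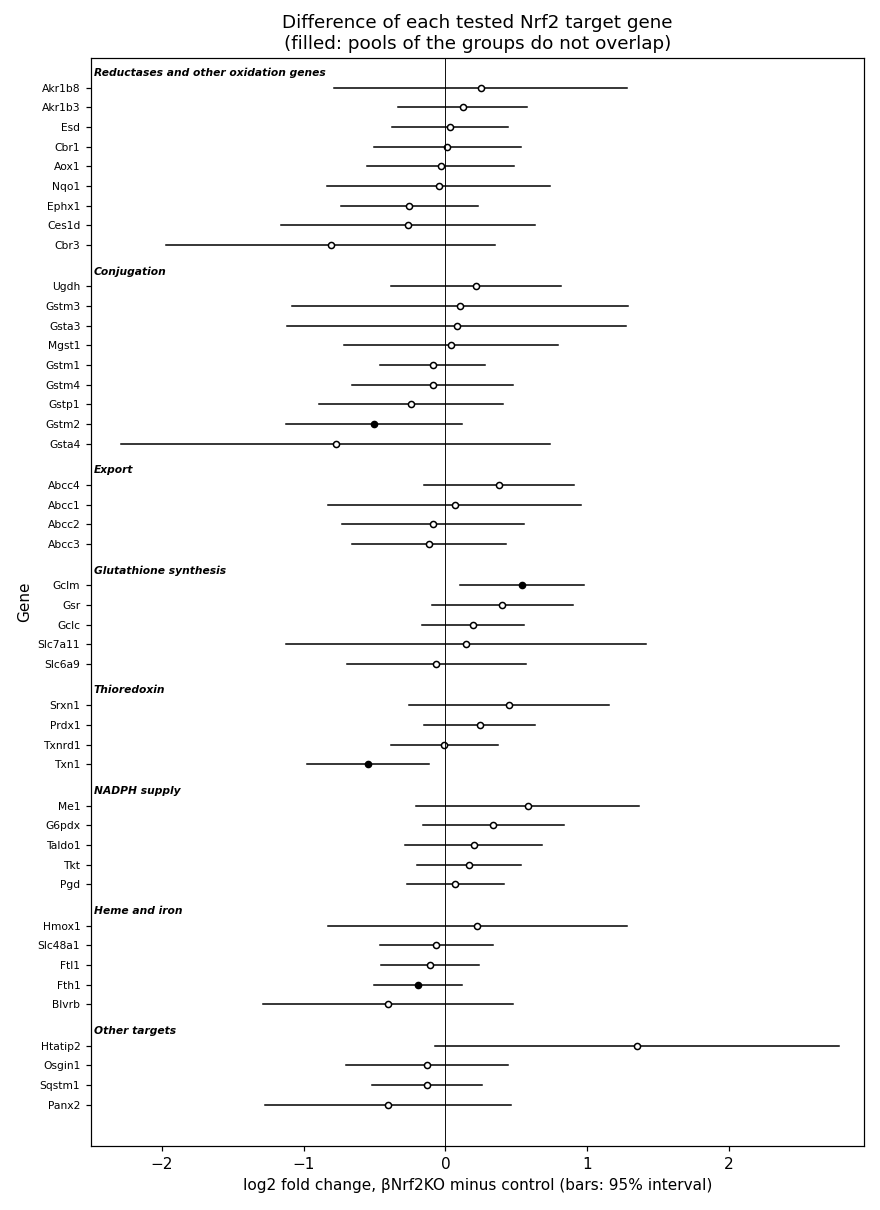
Log2 fold change of each of the 45 tested members (x axis, βNrf2KO minus control, edgeR) with its 95% interval, sorted within functional groups. Filled points mark the 4 members whose pools do not overlap between groups, Gclm, Txn1, Gstm2 and Fth1; all 5 NADPH genes lie above 0, and of all the intervals drawn only those of Gclm and Txn1 leave out 0.

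Nfe2l2, the gene of Nrf2 itself, was at 22.7, 11.4 and 12.8 RPKM in the control pools, against 17.6, 15.2, 17.7 and 15.5 RPKM in the βNrf2KO pools, and its log2 fold change of 0.08 ± 0.23 (SE; edgeR adjusted p = 0.911) describes all of its exons in all islet cells and does not check the deletion. Keap1 differed by 0.16 ± 0.20 (edgeR adjusted p = 0.788).

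Genes of glutathione synthesis, precursor uptake and recycling had log2 fold changes above 0 in 4 of 5, with a median of 0.19, and 0 were called. Gclm encodes the modifier subunit of glutamate-cysteine ligase, the enzyme that begins glutathione synthesis (ENSMUSG00000028124, chromosome 3, 122245557 to 122270732, plus strand, GRCm38). It was at 8.01, 4.97 and 8.43 RPKM in control pools 1, 2 and 4, and 10.5, 8.93, 11.5 and 10.7 RPKM in βNrf2KO pools 1, 2, 3 and 4. Every βNrf2KO pool was above every control pool, the nearest being βNrf2KO pool 2 and control pool 4. The means were 7.14 ± 1.89 RPKM (SD, n = 3) for control, 10.4 ± 1.06 RPKM (SD, n = 4) for βNrf2KO pools, and the log2 fold change was 0.54 ± 0.20 (SE; unadjusted p = 0.0195, edgeR adjusted p = 0.571). Leaving out 1 pool at a time gave 0.33 (without control pool 2) to 0.68 (without control pool 4).

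Gclc, the catalytic subunit of the same enzyme, was at 11.2, 10.9 and 9.45 RPKM in control pools 1, 2 and 4, and 13.5, 11.95, 12.7 and 9.91 RPKM in βNrf2KO pools 1, 2, 3 and 4. Its groups overlapped through βNrf2KO pool 4, and the log2 fold change was 0.19 ± 0.17 (edgeR adjusted p = 0.687), with a 95% interval of -0.17 to 0.55. The ratio of Gclm to Gclc within a pool, which does not depend on library scaling, was 0.715, 0.457 and 0.892 for controls 1, 2 and 4, against 0.774, 0.747, 0.905 and 1.08 for knockout pools 1, 2, 3 and 4. The ratios overlapped, with a difference of 0.39 on the log2 scale (exact two-sided permutation test over 35 splits, p = 0.229; adjusted over 2 ratios, 0.457). The smallest p this design allows is 0.0571. That difference was 0.12 without control pool 2, where the ratio was lowest, and 0.60 without control pool 4.

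Gsr, which reduces oxidised glutathione with NADPH, was at 13.3, 9.37 and 19.4 RPKM in control pools 1, 2 and 4, and 16.5, 17.4, 21.4 and 18.9 RPKM in βNrf2KO pools 1, 2, 3 and 4. Control pools 1 and 2 were below all βNrf2KO pools, and control pool 4 was within their range. Its log2 fold change was 0.40 ± 0.23 (edgeR adjusted p = 0.588), 0.18 without control pool 2 and 0.71 without control pool 4. Slc7a11, the cystine transporter that brings in the cysteine of glutathione, was low at 1.25, 0.138 and 0.353 RPKM in the control pools, against 0.657, 0.521, 0.832 and 0.554 RPKM in the βNrf2KO pools. The control pools spanned the whole range, with pool 1 highest and pool 2 lowest of all 7, and the log2 fold change of 0.15 ± 0.57 (edgeR adjusted p = 0.936) turned to -0.31 without control pool 2 and was 1.35 without control pool 1. The glycine transporter Slc6a9 was at 2.19, 1.40 and 0.989 RPKM in the control pools, against 1.90, 1.27, 1.29 and 1.36 RPKM in the βNrf2KO pools, with a log2 fold change of -0.06 ± 0.29 (edgeR adjusted p = 0.948).

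The summed level of the 5 glutathione genes was 35.9, 26.8 and 38.6 RPKM in control pools 1, 2 and 4 and 43.0, 40.1, 47.7 and 41.4 RPKM in βNrf2KO pools 1, 2, 3 and 4. The groups did not overlap in this sum, most of which is Gsr, Gclc and Gclm. Among single genes 6.99% did not overlap, and the share for sums of genes in general was not computed. The sum of the 21 NADPH, heme and iron genes outside the members was also higher without overlap (108 to 142 against 150 to 164 RPKM). That of the glutathione and thioredoxin genes outside the members overlapped (324 to 446 against 337 to 495 RPKM). So did that of the Nrf2 regulators and partners (255 to 279 against 252 to 272 RPKM). Control pool 2, lowest in the sum of the 5 genes, was also the lowest of the 7 pools in the summed β-cell markers (8175 RPKM). It also had the highest share of mitochondrial genome counts (51.8%) and the fewest genes with a count (25979). The part of cell makeup or of library quality in the sum of the 5 genes was not tested.

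The thioredoxin and peroxiredoxin genes pointed both ways, with 2 of 4 above 0, a median log2 fold change of 0.12 and 0 called. Txn1, the cytosolic thioredoxin that reduces disulfides (ENSMUSG00000028367, chromosome 4, 57943373 to 57956411, minus strand, GRCm38), was at 14.1, 12.2 and 15.02 RPKM in control pools 1, 2 and 4, and 8.81, 8.91, 11.6 and 8.43 RPKM in βNrf2KO pools 1, 2, 3 and 4. All 4 βNrf2KO pools were below all 3 control pools, with control pool 2 and βNrf2KO pool 3 nearest. The means were 13.8 ± 1.44 RPKM (SD, n = 3) for control, 9.43 ± 1.46 RPKM (SD, n = 4) for βNrf2KO pools, and the log2 fold change was -0.55 ± 0.20 (SE; unadjusted p = 0.0175, edgeR adjusted p = 0.571). It stayed between -0.66 and -0.48 when each pool was left out.

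Txnrd1, the reductase that restores thioredoxin with NADPH, was at 18.8, 15.6 and 23.8 RPKM in the control pools, against 17.4, 19.5, 21.2 and 19.2 RPKM in the βNrf2KO pools. The βNrf2KO pools lay inside the range of the control pools, and the log2 fold change was -0.01 ± 0.17 (edgeR adjusted p = 0.993), with a 95% interval of -0.38 to 0.37. Srxn1, the sulfiredoxin that repairs overoxidised peroxiredoxins, was at 23.9, 10.2 and 15.1 RPKM in the control pools, against 31.3, 17.2, 27.0 and 14.2 RPKM in the βNrf2KO pools. Pools of number 1 were the highest of their group in both genotypes, and the log2 fold change of 0.45 ± 0.32 (edgeR adjusted p = 0.643) was 0.20 when control pool 2 and 0.82 when control pool 1 was left out. Prdx1, a cytosolic peroxidase that is renewed by thioredoxin, was at 23.3, 17.2 and 23.7 RPKM in the control pools, against 21.5, 24.5, 30.5 and 24.8 RPKM in the βNrf2KO pools. Control pool 2 was the lowest and βNrf2KO pool 3 the highest, and the log2 fold change was 0.24 ± 0.18 (edgeR adjusted p = 0.646). The opposite signs of Txn1 and Prdx1 were not tested against each other.

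**Figure D3:**
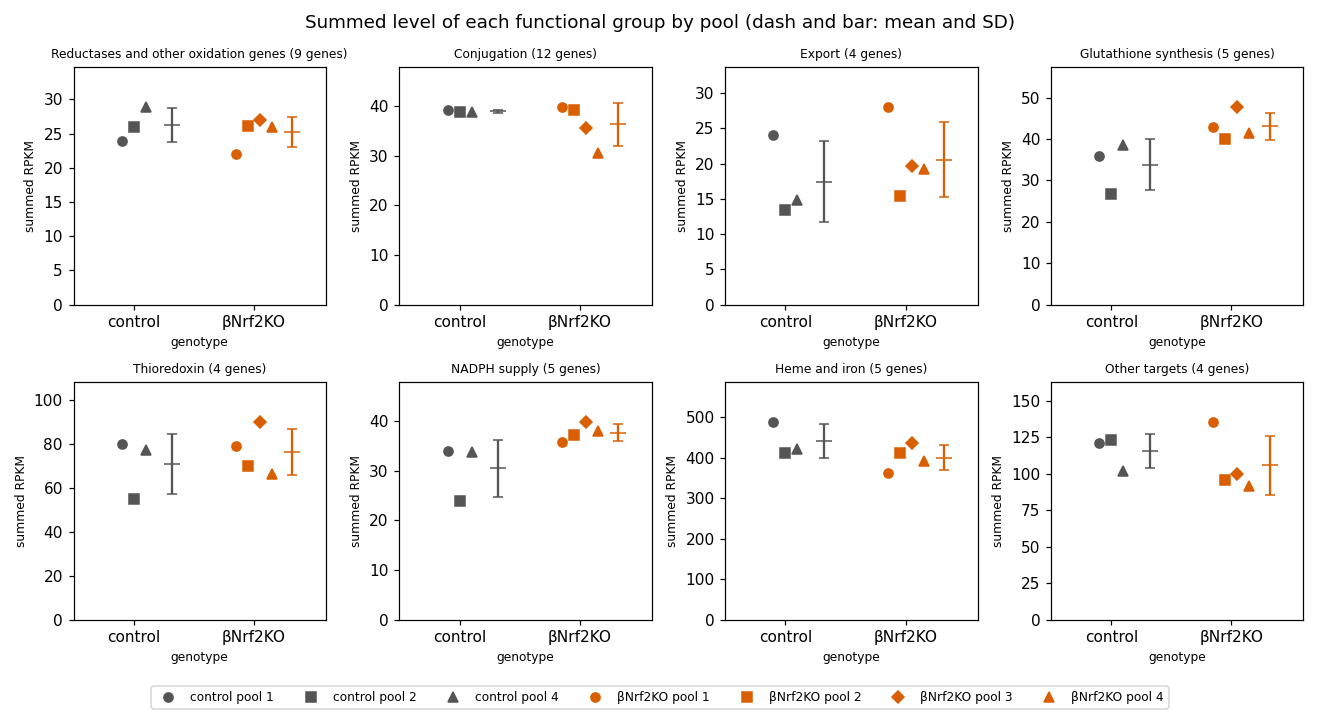
Summed RPKM (y axis, from 0) of the members of each functional group in each pool, with mean and SD beside the points of control (n = 3) and βNrf2KO (n = 4). The sums of glutathione synthesis (26.8 to 38.6 against 40.1 to 47.7 RPKM) and NADPH supply (23.8 to 33.9 against 35.8 to 39.8 RPKM) do not overlap between groups, and the other 6 do. Control pool 2 is lowest in both of these sums, which come from the same pools, and the share for sums of genes in general was not computed. The sum of NADPH, heme and iron genes outside the members, not drawn, did not overlap either.

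The NADPH supply group includes Tkt and Taldo1, pentose phosphate pathway enzymes that do not make NADPH themselves. Its members lay above 0 in 5 of 5, the median log2 fold change being 0.20, and 0 were called. These 5 signs were kept in all 14 alternatives to the test, although 49.4% of all genes also lay above 0 and the 5 share the same pools. Me1, malic enzyme, which makes NADPH from malate, was at 12.8, 3.74 and 6.36 RPKM in control pools 1, 2 and 4, and 14.4, 7.84, 11.5 and 12.1 RPKM in βNrf2KO pools 1, 2, 3 and 4. Within each genotype pool 1 was highest and pool 2 lowest, and the groups overlapped. The means were 7.65 ± 4.69 RPKM (SD, n = 3) for control, 11.5 ± 2.70 RPKM (SD, n = 4) for βNrf2KO pools, with a log2 fold change of 0.58 ± 0.36 (edgeR adjusted p = 0.606). With the pool number as a block it was 0.71 ± 0.20 (SE; unadjusted p = 0.00344, edgeR adjusted p = 0.268), and it was 0.26 without control pool 2 and 1.17 without control pool 1.

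G6pdx, which opens the pentose phosphate pathway, was at 3.93, 3.75 and 5.24 RPKM in the control pools, against 3.82, 6.82, 5.57 and 5.62 RPKM in the βNrf2KO pools. The groups overlapped through βNrf2KO pool 1, and the log2 fold change was 0.34 ± 0.23 (edgeR adjusted p = 0.629). The later enzymes of that pathway had smaller values, 0.20 ± 0.22 for the transaldolase Taldo1, 0.16 ± 0.17 for the transketolase Tkt and 0.07 ± 0.16 for the dehydrogenase Pgd (SE, log2 fold change). Their adjusted p by edgeR was 0.759, 0.736 and 0.884. Pgd had the narrowest interval of the group, -0.27 to 0.42. The summed level of the 5 genes was 33.9, 23.8 and 33.7 RPKM in control pools 1, 2 and 4 and 35.8, 37.1, 39.8 and 37.9 RPKM in βNrf2KO pools 1, 2, 3 and 4, which did not overlap. Control pool 2, which had the highest mitochondrial share, was lowest in this sum as well. The sums of the glutathione and NADPH genes come from the same 7 pools. The part of cell makeup or of library quality in them was not tested.

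Among the enzymes of reduction, oxidation and hydrolysis 4 of 9 members lay above 0, the median log2 fold change being -0.03, and 0 were called. Nqo1, an enzyme that reduces quinones and a widely used Nrf2 target (ENSMUSG00000003849, chromosome 8, 107388225 to 107403206, minus strand, GRCm38), was at 2.12, 1.11 and 3.62 RPKM in control pools 1, 2 and 4, and 2.03, 1.96, 2.48 and 2.48 RPKM in βNrf2KO pools 1, 2, 3 and 4. The control pools held both the lowest and the highest value, and the 4 βNrf2KO pools lay between them. Its means were 2.28 ± 1.26 RPKM (SD, n = 3) for control, 2.24 ± 0.281 RPKM (SD, n = 4) for βNrf2KO pools, and its log2 fold change was -0.05 ± 0.36 (edgeR adjusted p = 0.969), with a 95% interval of -0.83 to 0.74. With 26 to 169 counts per pool, a difference of either sign within this interval remains possible. A result without a call therefore does not show that Nqo1 was unchanged. The sign turned with the block (0.02), and the value was -0.37 when control pool 2 and 0.47 when control pool 4 was left out.

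Cbr1, a carbonyl reductase and the highest of these enzymes, was at 5.79, 7.95 and 9.40 RPKM in the control pools, against 5.80, 8.06, 9.09 and 8.26 RPKM in the βNrf2KO pools, with a log2 fold change of 0.01 ± 0.24 (edgeR adjusted p = 0.988). Its neighbour Cbr3 had the lowest value of the group, -0.81 ± 0.53 (edgeR adjusted p = 0.624), from only 5 to 15 counts per pool. The aldo-keto reductase Akr1b8 differed by 0.25 ± 0.47 on the log2 scale (edgeR adjusted p = 0.862), with 14 to 33 counts per pool. Neither difference was larger than the spread between pools by this test. The epoxide hydrolase Ephx1, the reductase Akr1b3, the oxidase Aox1 and the esterases Ces1d and Esd had log2 fold changes between -0.26 and 0.12.

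Of the conjugating enzymes 4 of the 9 tested lay above 0, the median log2 fold change being -0.09, and 0 were called. Gstm1, the highest in RPKM as counted of the glutathione transferases among the members, was at 16.4, 19.1 and 14.1 RPKM in the control pools, against 14.2, 16.6, 15.8 and 15.4 RPKM in the βNrf2KO pools. The pools overlapped, with a log2 fold change of -0.09 ± 0.17 (edgeR adjusted p = 0.862) and a 95% interval of -0.46 to 0.28. Gstm2, of the same class and cluster on chromosome 3, was lower in all 4 βNrf2KO pools, at 2.03, 1.77 and 1.56 RPKM in control pools 1, 2 and 4, and 1.08, 1.198, 1.34 and 1.40 RPKM in βNrf2KO pools 1, 2, 3 and 4. The nearest values were those of control pool 4 and βNrf2KO pool 4. Its log2 fold change was -0.50 ± 0.28 (edgeR adjusted p = 0.588). The summed level of fibroblast and mesothelial markers was 222, 163 and 72.5 RPKM in control pools 1, 2 and 4. In βNrf2KO pools 1, 2, 3 and 4 that sum was 81.1, 128, 61.2 and 76.9 RPKM, which overlapped with control. The part of these cells in the Gstm2 result was not tested. Gsta4, which conjugates products of lipid peroxidation, differed by -0.78 ± 0.69 (edgeR adjusted p = 0.699) with 2 to 17 counts per pool. Ugdh, which makes the donor sugar for glucuronidation, was at 6.05, 2.43 and 3.30 RPKM in the control pools, against 4.91, 4.01, 5.48 and 3.88 RPKM in the βNrf2KO pools, with a log2 fold change of 0.22 ± 0.28 (edgeR adjusted p = 0.789). The other tested members, Gsta3, Gstm3, Gstm4, Gstp1 and Mgst1, had log2 fold changes between -0.24 and 0.11.

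The 4 exporters of conjugates lay 2 above and 2 below 0, the median log2 fold change being -0.01, and 0 were called. Abcc4, which exports cyclic nucleotides as well as conjugates, was the highest of the 4, at 13.0, 6.83 and 9.47 RPKM in control pools 1, 2 and 4, and 15.7, 8.84, 13.4 and 13.0 RPKM in βNrf2KO pools 1, 2, 3 and 4. The groups overlapped, yet in each pair of pools with the same number the βNrf2KO pool was above the control pool, by 0.27, 0.37 and 0.46 on the log2 scale for numbers 1, 2 and 4. Its log2 fold change was 0.38 ± 0.24 (edgeR adjusted p = 0.618), and 0.37 ± 0.15 with the pool number as a block (unadjusted p = 0.0318, edgeR adjusted p = 0.376). Abcc1 followed the pool number more than the genotype, at 9.77 and 10.9 RPKM in the pools numbered 1 of control and βNrf2KO and 3.57 to 4.99 RPKM in the other 5 pools. The log2 fold change of Abcc3 was -0.12 ± 0.25 (edgeR adjusted p = 0.879) and that of Abcc2 -0.09 ± 0.29.

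**Figure D4:**
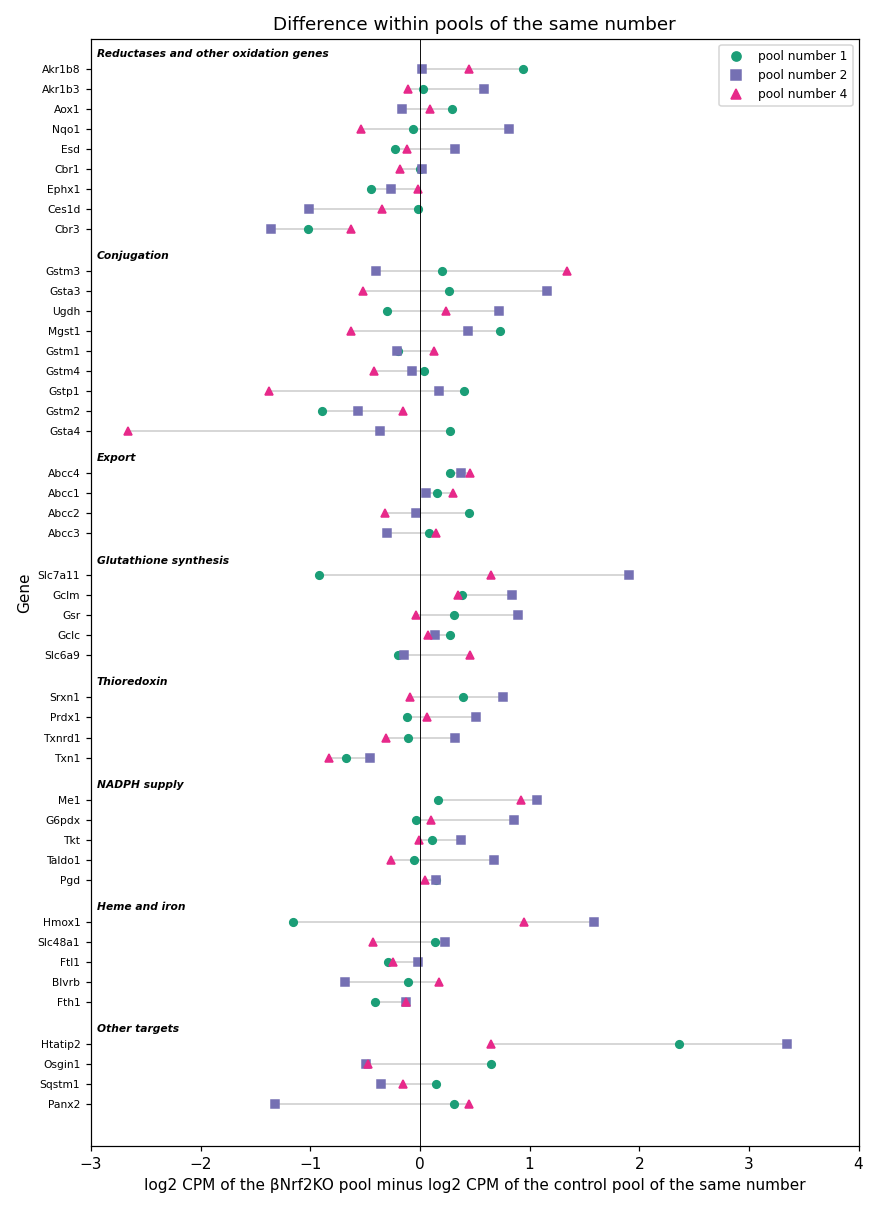
Difference in log2 CPM (counts scaled to library size) between the βNrf2KO and control pools of the same number (x axis) for each tested member, with 1 symbol per pool number 1, 2 and 4 and a line over their range. Abcc4, Gclm, Me1 and Htatip2 lie above 0 in all 3 pairs and Txn1, Fth1 and Gstm2 below 0 in all 3, while Hmox1 and Slc7a11 span more than 2 log2 units with both signs.

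Pools were paired by number alone, since the labels do not say what pools of the same number share. Across the 3 pairs of pools, 8 of 45 members were higher in βNrf2KO in every pair (19.0% of all tested genes), 7 were lower in every pair (18.0% of all genes) and 30 were mixed. Of the 5 NADPH genes Me1 and Pgd were higher in every pair, and of the 5 glutathione genes Gclm and Gclc were. The plot of these pairs shows each member's spread.

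Heme and iron genes lay below 0 in 4 of 5, the median log2 fold change being -0.11, and 0 were called. Hmox1, the inducible heme oxygenase (ENSMUSG00000005413, chromosome 8, 75093621 to 75100589, plus strand, GRCm38), was at 51.8, 11.6 and 14.4 RPKM in control pools 1, 2 and 4, and 23.1, 34.96, 35.3 and 27.8 RPKM in βNrf2KO pools 1, 2, 3 and 4. Control pool 1 was the highest and control pools 2 and 4 the lowest of all 7, and the control SD (22.4 RPKM) was close to the control mean (25.9 RPKM). Its log2 fold change was 0.23 ± 0.47 (edgeR adjusted p = 0.875), -0.12 without control pool 2 and 1.22 without control pool 1. Control pool 1 was also highest in summed acinar markers (329 RPKM) and macrophage markers (56.5 RPKM), whose part in the Hmox1 value was not tested. Blvrb, which reduces biliverdin made from heme, differed by -0.41 ± 0.40 (edgeR adjusted p = 0.729) with 42 to 80 counts per pool.

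Fth1, the ferritin heavy chain and the most abundant member (ENSMUSG00000024661, chromosome 19, 9982703 to 9985092, plus strand, GRCm38), was at 314, 298 and 280.3 RPKM in control pools 1, 2 and 4, and 236, 274, 276 and 257 RPKM in βNrf2KO pools 1, 2, 3 and 4. The βNrf2KO pools were all lower, with βNrf2KO pool 3 and control pool 4 nearly touching. The log2 fold change was small, -0.19 ± 0.14 (edgeR adjusted p = 0.647), with a 95% interval of -0.50 to 0.12 and values from -0.24 to -0.15 with any 1 pool removed. Ftl1, the light chain, differed by -0.11 ± 0.16, and the heme transporter Slc48a1 by -0.06 ± 0.18. The ratio of Fth1 to Ftl1 was 2.94 ± 0.425 (SD, n = 3) for control against 2.76 ± 0.290 (SD, n = 4) for knockout pools, which overlapped (exact permutation p = 0.514; adjusted over 2 ratios, 0.514).

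Of the other targets 1 of 4 lay above 0, the median log2 fold change being -0.13, and 0 were called. Sqstm1 was at 119, 118 and 97.9 RPKM in the control pools, against 131, 92.0, 95.8 and 87.8 RPKM in the βNrf2KO pools. The pools overlapped, and the log2 fold change was -0.13 ± 0.18 (edgeR adjusted p = 0.807). Htatip2, an oxidoreductase-like protein with roles in apoptosis and nuclear import, had the largest value of all members, 1.35 ± 0.65 (unadjusted p = 0.0609, edgeR adjusted p = 0.571). It rests on few reads, with 4, 1 and 31 counts for controls 1, 2 and 4, against 24, 21, 23 and 44 counts for knockout pools 1, 2, 3 and 4. Control pool 4 lay within the range of the βNrf2KO pools in RPKM and control pools 1 and 2 lay below it, and the value was 2.99 without control pool 4 and 0.90 without control pool 2. Panx2, a pannexin, differed by -0.41 ± 0.40 (edgeR adjusted p = 0.724), with control pool 2 at 2.48 RPKM and the other 6 pools at 0.694 to 1.36 RPKM. Osgin1, an oxidative stress induced growth inhibitor, differed by -0.13 ± 0.26.

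Other genes of these pathways, outside the 48 members, were also not called. Of 34 tested genes of glutathione and thioredoxin 14 lay above 0 (median log2 fold change -0.02). Of the 34, 3 had an unadjusted p under 0.05, all higher (against 8.46% of all genes, 3.23% higher and 5.23% lower). With the pool number as a block there were also 3, but 2 higher and 1 lower (against 12.1% of all genes, 6.02% higher and 6.12% lower). In the fit without the block they were Prdx6 (0.46 ± 0.19), a peroxidase that uses glutathione, Chac2 (0.76 ± 0.32), which degrades glutathione, and Gpx2 (0.88 ± 0.40), a glutathione peroxidase. With the block Prdx6 and Gpx2 kept such a p and Chac2 did not, and the microsomal transferase Mgst3, named after its values were seen, was the lower one (-0.89 ± 0.30). Chac2 was at 1.08, 0.853 and 1.04 RPKM in the control pools, against 1.71, 1.92, 1.68 and 1.43 RPKM in the βNrf2KO pools, without overlap. Of 21 genes of NADPH, heme and iron 14 lay above 0 (median 0.16). Only 1 had an unadjusted p under 0.05, the transferrin receptor Tfrc, which brings iron into the cell (against 8.46% of all genes). With the pool number as a block 4 of the 21 had such a p, all higher, and 0 were called (against 12.1% of all genes, 6.02% higher). Tfrc was at 10.6, 4.02 and 13.1 RPKM in control pools 1, 2 and 4, and 14.2, 16.5, 24.2 and 18.2 RPKM in βNrf2KO pools 1, 2, 3 and 4. Every βNrf2KO pool was above every control pool, with a log2 fold change of 0.98 ± 0.34 (edgeR adjusted p = 0.571). Of 14 regulators and partners of Nrf2 7 lay above 0 (median 0.01). Maff, a small Maf protein that pairs with Nrf2, was the 1 with an unadjusted p under 0.05 (against 8.46% of all genes). It was at 43.2, 51.2 and 36.6 RPKM in control pools 1, 2 and 4, and 32.5, 30.5, 23.7 and 20.4 RPKM in βNrf2KO pools 1, 2, 3 and 4. All βNrf2KO pools were lower, with a log2 fold change of -0.70 ± 0.20 (edgeR adjusted p = 0.571). Each of the 3 lists held 1 gene without overlap, Chac2, Tfrc and Maff, where 6.99% of all tested genes did not overlap.

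Reads of some members may have been split with or lost to near-identical genes, since the treatment of multi-mapping reads and of strand is not given in the sources used here. Of the windows of 50 bases along the longest GENCODE M21 transcript, 90.6% were also present in another gene for Ftl1, 89.7% for Gsta1, 64.2% for Gsta2, 62.3% for Gstp1, 41.2% for Slc6a9 (mostly with Ccdc24) and 38.9% for Ugt1a6a. The values of these 6 genes are uncertain for that reason, and the 0 counts of Gsta1 do not show that the gene is silent. The share was 32.8% for Me1, mostly with Gm7049, 28.8% for Gstm3, 23.1% for Gstm1 and 9.4% for Gstm2. It was 2.5% for Txn1, 0.8% for Gclm and 0.0% for Nqo1, Gclc, Gsr, Txnrd1, Srxn1 and Hmox1. Genes on the opposite strand overlapped 30.2% of the exon bases of Slc6a9, 26.5% of Ftl1, 17.3% of Sqstm1, 13.6% of G6pdx and 4.7% of Gclm.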

How the data were processed

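RNA of islets was sequenced from ribosome-depleted libraries of 7 pools, 3 control and 4 βNrf2KO, grouped by their titles. The deposited files give unnormalized counts for each gene. The submitters' processing notes list STAR 2.5.2b, featureCounts (Subread 1.5.2), Trimmomatic 0.36 and bcl2fastq 2.20. Exon positions in the files follow GRCm38, although the notes name GRCm39. The Cre entry entered neither library sizes nor tests, and a combined table was not used.

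Genes were filtered with filterByExpr, scaled by TMM and tested with edgeR 4.0.16 in R 4.3.3 by the robust quasi-likelihood test, two-sided, with Benjamini-Hochberg adjustment over 19893 genes and a threshold of 0.05. The test was checked on simulated data. Totals were 18187382 to 25373105 counts per pool, and the common biological coefficient of variation was 0.28. RPKM used the lengths in the files, and log2 CPM added 0.5 to each count. Intervals of 95% come from the edgeR fit. Nothing in the labels says that pools are more than samples of RNA of 5 animals each, so p-values measure the spread between pools.

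The titles give each pool a number and do not say what pools of the same number share. Pools of the same number correlated after removal of group means (r = 0.350, 0.213 and 0.293 for numbers 1, 2 and 4, across genes, against -0.326 to 0.219 for different numbers), so the number was used as a block in an alternative fit, and pool 3 has no partner. Other alternatives were RLE scaling, no mitochondrial genes, no filter, at least 1 CPM in 3 pools, DESeq2 1.42.0, limma-voom (limma 3.58.1) with quality weights, a threshold of 0.1 and leaving out each pool.

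The members, groups and lists were chosen with earlier results of these data known. Named were members with an unadjusted p under 0.05 or without overlap, in each group the highest member and those with the largest and smallest log2 fold change, a fixed set of 9 (Nqo1, Hmox1, Gclc, Gclm, Slc7a11, Txnrd1, Srxn1, Txn1 and G6pdx), Nfe2l2 and Keap1, and up to 3 pathway genes per list. Symbols came from the reference table of gene names.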

Additional observations from a re-analysis of the deposited data

Results flagged for a closer look

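Slc6a9 in βNrf2KO pool 1 stood apart from the other 3 βNrf2KO pools, at 3.30 log2 CPM. Its gap to the nearest of them was 0.829 of the whole range of the 4 pools, at the limit of 0.829 for 4 samples. Of 34 genes checked in this way 1 was past the limit, where chance gives about 1 in 20. The control pool of the same number was also the highest of its group (2.19 RPKM against 1.40 and 0.99 RPKM), and genes on the opposite strand overlap 30.2% of the exon bases of Slc6a9. Their part in the value was not tested.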

How the results depend on the processing

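No alternative called a member or a pathway gene. Over all genes 0 were called, against 2 by DESeq2 and 14 with the pool number as a block, and 0 to 1 when 1 pool was left out (1 without control pool 4). Genes with an unadjusted p under 0.05 numbered 1683, against 2620 without a filter, where more genes were tested, and 475 (without control pool 2) to 3446 (without control pool 4). It was 2893 when control pool 1 was left out, 783 for βNrf2KO pool 3 and 820 for βNrf2KO pool 4. Among members that count was 2, against 5 with the block and 1 to 8 when 1 pool was left out. The block raised the count of all genes with an unadjusted p under 0.05 from 1683 to 2415 and called no member or pathway gene. It turned the sign of 6 members, Nqo1 (0.0196), Cbr1 (-0.0581), Slc6a9 (0.0385), Aox1, Esd and Abcc2, in log2 fold change, and limma-voom turned 4, Txnrd1 (0.0114), Gsta3, Mgst1 and Abcc1. The cause was not tested.

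The median of the members stayed between -0.04 and 0.04 in all 14 alternatives. When 1 pool was left out, the group median stayed above 0 for glutathione (0.12 to 0.36) and NADPH genes (0.13 to 0.43) and below 0 for conjugation (-0.14 to -0.05) and heme and iron (-0.19 to -0.07), and its sign turned for reductases (-0.11 to 0.0246), export (-0.11 to 0.17), thioredoxin genes (-0.0203 to 0.24) and other targets (-0.26 to 0.17). Leaving out some pool turned the sign of 23 of the 45 tested members and of Nfe2l2 and Keap1. Among the genes named by rule the log2 fold changes ranged as follows: Nqo1 (-0.37 to 0.47), Cbr1 (-0.15 to 0.18), Gstm1 (-0.19 to 0.0255), Ugdh (-0.0296 to 0.67), Abcc3 (-0.27 to 0.10), Slc7a11 (-0.31 to 1.35), Slc6a9 (-0.31 to 0.29), Txnrd1 (-0.14 to 0.17), Hmox1 (-0.12 to 1.22), Blvrb (-0.75 to 0.11), Panx2 (-0.72 to 0.28), Nfe2l2 (-0.10 to 0.45) and Keap1 (-0.0153 to 0.28). The others that turned were Akr1b3, Aox1, Ces1d, Esd, Gsta3, Gstm3, Gstm4, Mgst1, Abcc1, Abcc2, Slc48a1 and Osgin1. The difference of the Fth1 to Ftl1 ratio went from -0.18 to 0.0227. Of the 45 tested members 22 kept their sign in every alternative that tested them, 13 above 0 and 9 below. Depth limits Cbr3, Gsta4, Gstm3, Akr1b8, Ces1d and Htatip2, each under 50 counts in every pool.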

Other observations

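The spread between pools was wider in control than in βNrf2KO islets for most members. The SD of log2 CPM was larger in control for 34 of 45 members (75.6%), as it was for 67.8% of all tested genes, with a median of 0.381 in control and 0.261 in βNrf2KO pools for members and 0.395 and 0.289 for all genes. The glutathione genes had a median SD of 0.523 in control and 0.193 in βNrf2KO pools, and the conjugating enzymes 0.275 and 0.420. Control pool 2 gave the lowest value of the 7 pools in 16 of 45 members (35.6%, against 28.1% of all tested genes), and βNrf2KO pool 1 the highest in 11 (24.4%, against 15.3%). βNrf2KO pool 4 was highest in 1 member (2.2%, against 11.5% of all genes).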
